A study of Mus musculus with 18 samples.

Results

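The retinal RNA of 10 chemokine ligands was followed through light damage and treatment with TD139, a small-molecule inhibitor of the lectin galectin-3. The genes were Ccl2, Ccl3, Ccl4, Ccl6, Cxcl1, Cxcl5, Cxcl10, Cxcl12, Cxcl16 and Cx3cl1. They were selected by symbol from the 23420 gene symbols counted, with their levels in these same mice already known, so the values and p-values given for them describe the genes and support nothing beyond that. A further 30 chemokine ligands and 24 chemokine receptors, taken as whole families, were listed beside them.

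Whole retinas came from 9 BALB/cJ mice (wild type), which the study used at 8 to 10 weeks and of both sexes, with 3 mice in each of 3 groups. Naïve mice had neither light nor treatment. Vehicle mice received bright white light at 15000 lux for 1 h with daily intraperitoneal DMSO, and TD139 mice the same light with daily TD139 at 15 mg/kg. Retinas were taken at day 4 in all groups. Injections started on the day before light, so the design has no TD139 group without light and no injected group without light. Vehicle and naïve mice differed in both light and injections, whose parts cannot be told apart, and "after light" or "for light" below stands for vehicle against naïve mice. Counts on genes ranged from 26171887 to 30201517 per mouse, and 3 counts, used as the floor of detection, stood for 0.101 to 0.119 CPM, the reads of a gene relative to its normalized library. The 6 rod markers summed to 66220 to 75070 CPM in naïve, 38250 to 53400 CPM in vehicle and 54570 to 68020 CPM in TD139 mice. In whole retina, fewer cells of a type and less RNA per cell cannot be told apart, and this holds for every level below.

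Chemokines are small secreted proteins that guide leukocytes along concentration gradients through G protein-coupled receptors on the cell surface. The spacing of the first cysteines gives the CC, CXC and CX3C families, named Ccl, Cxcl and Cx3cl in the mouse. In the retina, Cx3cl1 (fractalkine) is made mainly by neurons and binds Cx3cr1 on microglia, whereas most CC and CXC ligands are induced during inflammation by the transcription factor NF-kappaB, by interferons or by both.

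Promoter stretches are shown for the CXC ligands Cxcl1 and Cxcl10, since these held matches to binding motifs of such factors. RefSeq promoters on GRCm38.p6 were found for 6 of the 10 ligands (Ccl3, Ccl6, Cxcl1, Cxcl10, Cxcl12 and Cx3cl1). The 240 bases run 5′ to 3′ on the gene's strand from 250 to 11 bases before the annotated start, and capitals mark the matches.
Cxcl1 (chr5:90890995-90891234, plus strand): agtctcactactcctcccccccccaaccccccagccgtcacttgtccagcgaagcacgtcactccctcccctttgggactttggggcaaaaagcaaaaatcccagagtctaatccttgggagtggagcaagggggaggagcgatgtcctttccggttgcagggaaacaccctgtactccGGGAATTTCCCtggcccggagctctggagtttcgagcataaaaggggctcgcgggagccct
Cxcl10 (chr5:92348900-92349139, minus strand): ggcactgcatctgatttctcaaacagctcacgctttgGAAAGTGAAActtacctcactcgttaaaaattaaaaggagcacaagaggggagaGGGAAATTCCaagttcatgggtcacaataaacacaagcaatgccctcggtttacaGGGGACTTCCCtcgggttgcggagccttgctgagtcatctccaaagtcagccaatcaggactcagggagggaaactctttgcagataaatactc

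In the Cxcl1 stretch, overlapping matches to the NF-kappaB consensus (kappaB), 1 on each strand, covered 71 to 61 bases before the start. In the Cxcl10 stretch, kappaB matches lay 159 to 150 and 104 to 94 bases before the start, the latter overlapping on both strands, and the core motif of the interferon response element lay 213 to 204 bases before it. Searched on both strands, kappaB was present in 7.25% and the interferon core in 2.98% of 32851 mouse promoters. The stretches of Ccl3, Ccl6, Cxcl12 and Cx3cl1 held neither. A match is a description of the letters and not a binding site.

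Most of the ligands were scarce in the naïve retina. In RPKM, which is CPM divided by the kilobases of exon, Cx3cl1 stood at 36.3 ± 1.93 (SD, n = 3), Cxcl16 at 6.87 ± 1.72 and Cxcl12 at 2.15 ± 0.686, and the ranges of these neighbours did not overlap. Ccl4, Cxcl10 and Ccl6 followed at 0.115, 0.0991 and 0.0870 RPKM with overlapping ranges. Ccl3 had 1 count in all naïve mice together, and Ccl2, Cxcl1 and Cxcl5 had 0 counts. In vehicle mice, Cx3cl1 and Cxcl16 kept the first places at 41.1 and 18.5 RPKM. They were followed by Ccl2 at 2.34, Cxcl12 at 1.93 and Cxcl1 at 1.80 RPKM, whose ranges overlapped, and then by Ccl3, Cxcl5, Ccl6, Cxcl10 and Ccl4 between 0.974 and 0.362 RPKM, each overlapping the next. In TD139 mice, the order at the top was again Cx3cl1 at 38.7, Cxcl16 at 8.46 and Cxcl12 at 2.79 RPKM, and the other 7 ligands had means of at most 0.274 RPKM.

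**Figure D1:**
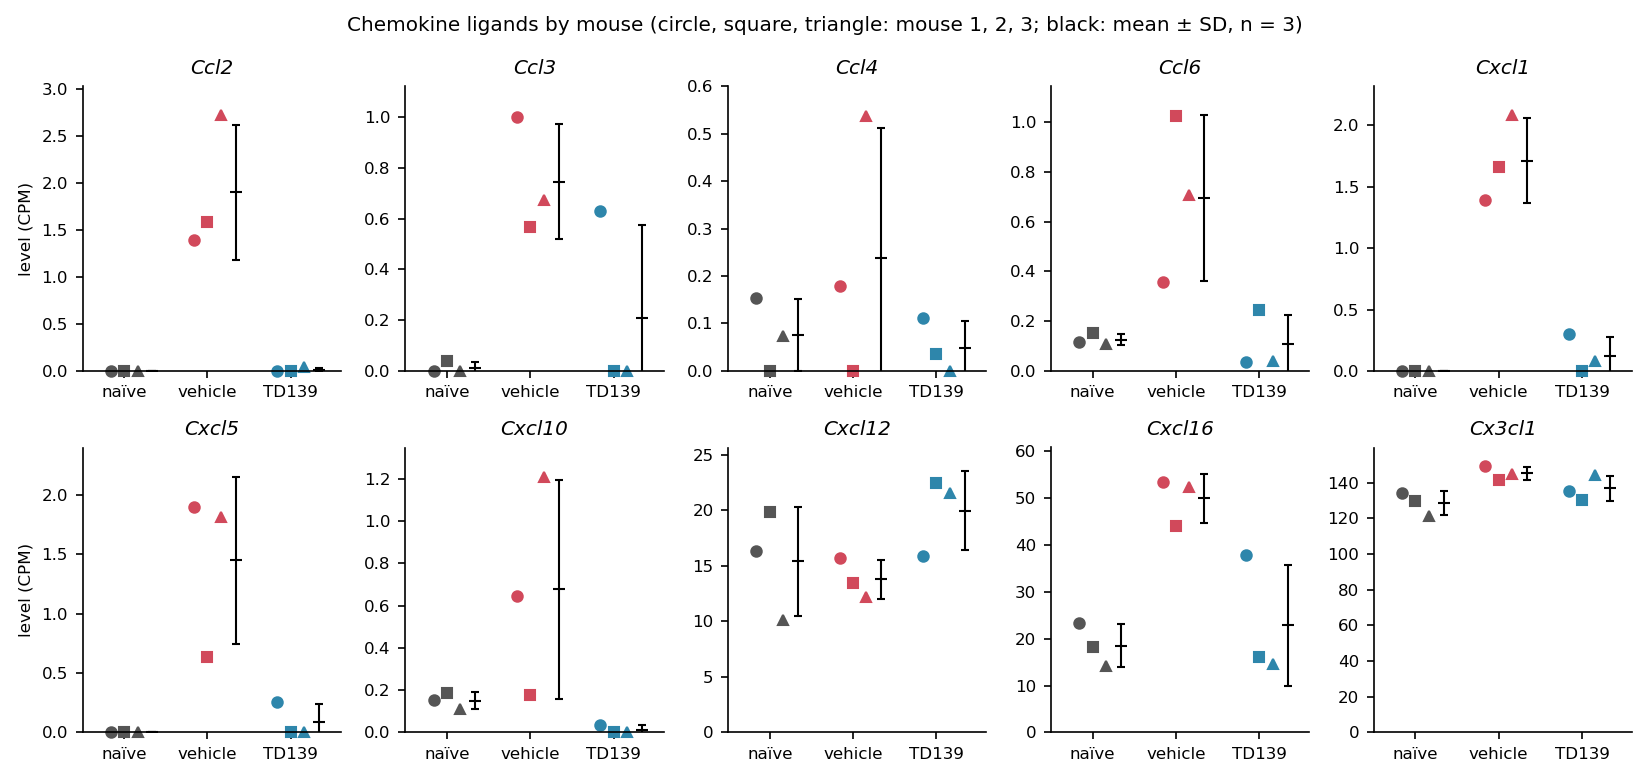
Level of each ligand in CPM (linear axes from 0) in the 9 mice, with the symbol showing the mouse number and black bars the mean ± SD of 3 mice, cut at 0. Ccl2, Cxcl1 and Cxcl5 were at 0 in all naïve mice and between 0.636 and 2.72 CPM in vehicle mice, while Cx3cl1 and Cxcl12 varied far less between groups.

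Vehicle mice were compared with naïve mice to ask how the ligands stood after light. Of the 8 ligands with enough counts to be tested, 4 rose (Ccl2, Cxcl1, Cxcl5 and Cxcl16), beside 4.91% of all 15196 tested genes, and none fell (edgeR quasi-likelihood test, adjusted p under 0.05). In 7 of the 8, every vehicle mouse was above every naïve mouse, beside 16.7% of all tested genes. The filter keeps a gene that is high in a single group, so nothing is read from these shares. The median log2 fold change of the 8 was 3.94, and that of all tested genes was −0.0018. With Ccl2, Cxcl1 and Cxcl5 set at their bounds and Ccl3 at its ratio of counts, which is no bound, the median of the 8 was 3.06. These medians carry the same limit as the shares. Ccl4 and Cxcl10 were too scarce for this edgeR fit.

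TD139 mice were then compared with vehicle mice, to ask how the ligands stood under the inhibitor after the same light. Here 5 of the 8 ligands fell (Ccl2, Ccl6, Cxcl1, Cxcl5 and Cxcl16), beside 16.2% of all tested genes, and none rose. In 5 of the 8, every TD139 mouse was below every vehicle mouse, beside 25.4% of the tested genes. In 1 of the 8, Cxcl12, every TD139 mouse was above, beside 26.0%. The median log2 fold change was −2.21 over the 8 ligands and −0.0164 over all tested genes. Since the filter keeps a gene that is high in vehicle mice alone, a fall from that level is favoured in the ligands tested. Nothing is therefore read from these shares or medians. Libraries of the groups also differed, since reads outside genes made up 21.3 to 22.8% in TD139 mice, above the 16.5 to 19.4% in vehicle and 19.1 to 19.9% in naïve mice. Over 15066 genes, the log2 fold change of TD139 against vehicle rose with exon length (Spearman's rho 0.50 across genes, which are not independent replicates). The rho was 0.60 for TD139 against naïve and −0.10 for vehicle against naïve mice. This limit thus also bears on comparisons of TD139 with naïve mice. The 5 ligands that fell against vehicle mice have 813 to 2699 bases of exon. With an offset for exon length and GC, Ccl2, Ccl6, Cxcl1 and Cxcl5 still passed (edgeR adjusted p 0.00698 to 0.0341) and Cxcl16 did not (0.0718). The part of reads outside genes in these values was not tested. Both comparisons use the same 3 vehicle mice, so they are not independent of each other. Against naïve mice, 0 of the 8 ligands passed in TD139 mice by edgeR, beside 5.10% of all tested genes, and 1 (Cxcl1) had an unadjusted edgeR p under 0.05. DESeq2 gave an adjusted p for 3 of the ligands in this comparison (Cxcl12, Cxcl16 and Cx3cl1), of which 0 passed, beside 13.5% of all 19011 genes.

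**Figure D2:**
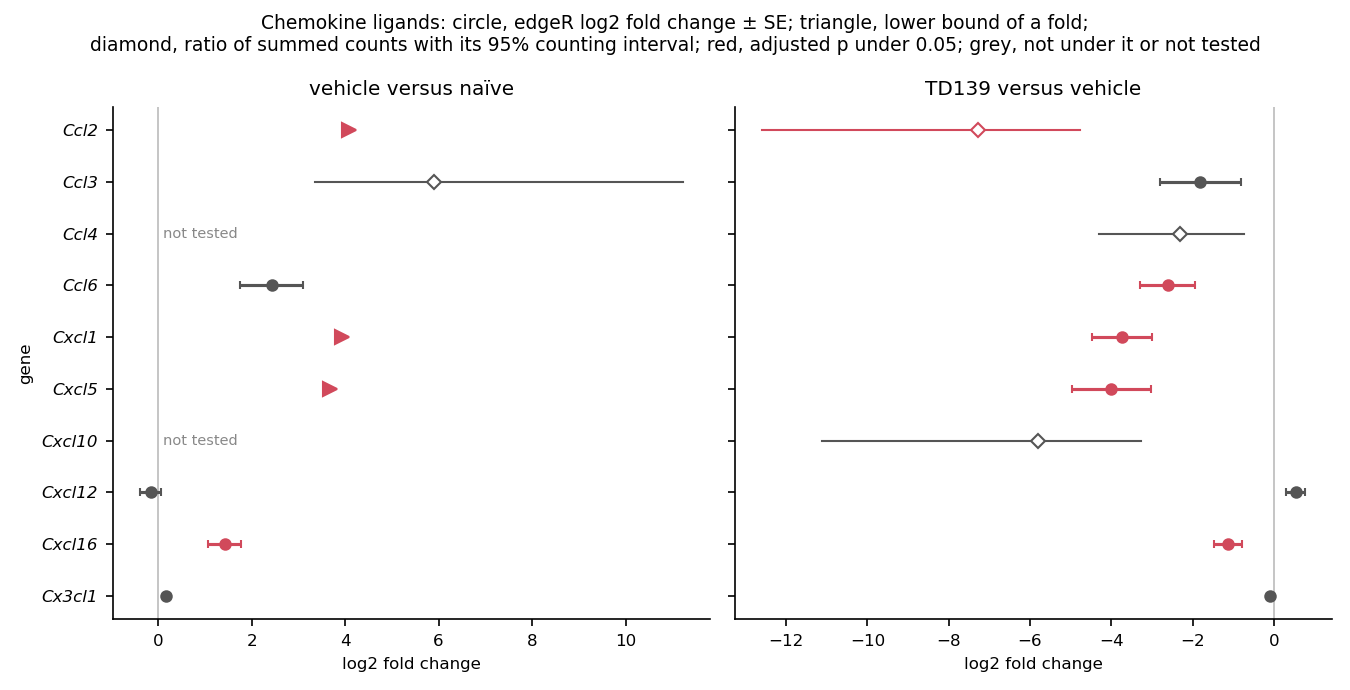
Log2 fold change of each ligand for vehicle against naïve mice (left) and TD139 against vehicle mice (right), with circles for the edgeR estimate ± SE, triangles for a lower bound, diamonds for the ratio of counts with its 95% counting interval, and red for an adjusted p under 0.05. All 5 ligands in red on the right lie below 0, and Cxcl12 and Cx3cl1 lie nearest to 0 on the left.

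Cxcl1 and Cxcl5 attract neutrophils through the receptor Cxcr2. Cxcl1 (chr5:90891241-90893115) had 0 counts in each naïve mouse, 39, 47 and 62 counts in vehicle mice 1 to 3, and 8, 0 and 2 counts in TD139 mice 1 to 3. All vehicle mice were thus above all others, and naïve and TD139 mice overlapped at 0. Its level after light was 1.71 ± 0.347 CPM (SD, n = 3), at least 15.2-fold above the floor of 3 counts per naïve mouse (edgeR adjusted p = 0.0141). The fold has no upper limit here. Under TD139 it fell by 3.74 on the log2 scale (SE 0.75, adjusted p = 0.00834). The light call was lost without naïve mouse 2 (adjusted p = 0.0651) or vehicle mouse 3 (0.0515), and the TD139 call without TD139 mouse 3 (0.0502). Its TD139 log2 fold change was −5.36 without TD139 mouse 1 and −3.15 at the other end of the range over left-out mice. Without naïve mouse 2, a single gene among 15447 tested was called for light at all, so a loss there is shared with nearly every gene.

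Cxcl5 (chr5:90759360-90761624), from the same chromosomal cluster, had 0 counts in each naïve mouse, 53, 18 and 54 counts in the vehicle mice, and 7, 0 and 0 counts in the TD139 mice. The lowest vehicle mouse, mouse 2, was above every naïve and TD139 mouse. The level after light, 1.45 ± 0.705 CPM, was at least 12.8-fold above the floor (adjusted p = 0.0249). TD139 mice were lower than vehicle mice by a log2 fold change of −4.00 (SE 0.98, adjusted p = 0.0169). The light call was lost when any naïve mouse, vehicle mouse 1 or vehicle mouse 3 was left out, with adjusted p-values of 0.0640 to 0.0830. The TD139 call was lost without vehicle mouse 3, TD139 mouse 2 or TD139 mouse 3, at 0.0557 to 0.0665. Without TD139 mouse 1 the remaining TD139 mice were at 0, and the fitted log2 fold change, which is then no bound, was −8.33 (edgeR adjusted p = 0.00244). Without TD139 mouse 2 it was −3.41. A further neutrophil attractant of the same cluster, Cxcl2, is named after its values were seen. It had 0 counts in naïve mice, 3, 5 and 8 counts in vehicle mice and 0 in TD139 mice. The edgeR fit left it out for its low counts, and with no filter it was called lower in TD139 than in vehicle mice.

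The receptor of these ligands was almost absent. Cxcr2 had a single count, in vehicle mouse 3. The 6 neutrophil markers summed to at most 0.147 CPM in naïve, 0.322 to 2.23 CPM in vehicle and at most 0.148 CPM in TD139 mice. In each vehicle mouse, only 1 of the 6 had more than 3 counts. Retnlg was at 0 in all mice, and Ngp and Camp were at 0 in naïve mice. Vehicle mouse 2, the highest for these markers, was the lowest of its group for Cxcl5. For Cxcl1 it lay between the other vehicle mice, at 1.66 CPM against 1.39 and 2.08 CPM.

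Ccl2 recruits monocytes through Ccr2. Ccl2 (chr11:82035571-82037453) had 0 counts in each naïve mouse, 39, 45 and 81 counts in vehicle mice, and 0, 0 and 1 count in TD139 mice. No mouse outside the vehicle group had more than 1 count. The level after light was 1.90 ± 0.717 CPM, at least 16.9-fold above the naïve floor (adjusted p = 0.0127). Summed over mice, vehicle counts per library were 155 times those of TD139 mice, with a 95% counting interval of 27.5 to 6173, and the edgeR log2 fold change was −6.81 (SE 0.78, adjusted p = 0.0050). The call for TD139 held when any mouse was left out, although without TD139 mouse 3 the fitted value of −8.73 was set against 0 counts. By contrast, that for light was lost without naïve mouse 2 (adjusted p = 0.0651). Between the flow cell runs of a vehicle mouse, Ccl2 gave 20 and 19, 23 and 22, and 33 and 48 counts.

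Ccr2 had 0 counts in naïve mice, 4, 9 and 0 counts in vehicle mice and 1, 0 and 0 counts in TD139 mice, too few for the edgeR fit. The 5 monocyte markers summed to 0.403 to 0.961 CPM in naïve mice, 0.465 to 3.89 CPM in vehicle mice and 0.356 to 0.661 CPM in TD139 mice. Their ranges overlapped, with vehicle mouse 2 the highest. Ccl7 and Ccl12, which also bind Ccr2 and lie near Ccl2, were left out of the edgeR fit for their low counts and are named after their values were seen. Ccl7 had 0 counts outside the vehicle group and 2, 9 and 14 counts in it. Ccl12 had 1, 1 and 3 counts in naïve, 6, 20 and 32 in vehicle and 3, 0 and 1 in TD139 mice. For both, all vehicle mice were above all other mice. DESeq2 called Ccl12 for light, and both DESeq2 and edgeR with no filter called Ccl7 and Ccl12 lower in TD139 than in vehicle mice.

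Ccl3 and Ccl4 are the macrophage inflammatory proteins, and Ccl3 binds Ccr1. Ccl3 (chr11:83647844-83649355) had 0, 1 and 0 counts in naïve mice, 28, 16 and 20 counts in vehicle mice, and 17, 0 and 0 counts in TD139 mice. TD139 mouse 1 was thus within the vehicle range, at 0.630 CPM, and the other TD139 mice were at 0. Vehicle counts were 59.4 times those of naïve mice, with a counting interval of 10.3 to 2382, yet the adjusted p-value was 0.0529. It stayed above the threshold in 10 of 16 alternatives, and reached 0.155 without naïve mouse 2. It passed with DESeq2 (0.0168), with only the groups compared (0.00486), with the length and GC offset (0.0333) and without any 1 of the TD139 mice (0.00434 to 0.0452). Against vehicle the log2 fold change was −1.81 (SE 1.00, adjusted p = 0.178) in all TD139 mice, and the edgeR adjusted p was 0.00226 without mouse 1. The remaining TD139 mice were then at 0, so the fitted value of −7.37 is no bound. In mouse 1, 15 of the 17 counts came from flow cell run 1 and 2 from run 2.

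Ccl4 (chr11:83662584-83664683), next to Ccl3, had 4, 0 and 2 counts in naïve, 5, 0 and 16 counts in vehicle and 3, 1 and 0 counts in TD139 mice. Its groups overlapped, and the edgeR fit left it out for its low counts. With no filter, edgeR gave log2 fold changes of 1.62 for light (adjusted p = 0.476) and −2.19 for TD139 against vehicle (0.247), and DESeq2 −2.29 for the latter (0.335). Vehicle mouse 2 had 0 counts of Ccl4 but 16 of Ccl3, and vehicle mouse 3 had 16 and 20.

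Ccl6 (chr11:83587882-83593087), a ligand of Ccr1 made by myeloid cells, had 3, 4 and 3 counts in naïve mice, 10, 29 and 21 counts in vehicle mice and 1, 7 and 1 counts in TD139 mice. Vehicle mice were above all others. For light, the log2 fold change of 2.43 (SE 0.68) had an adjusted p of 0.0508, just outside the threshold. Under TD139 the level fell by 2.62 on the log2 scale (SE 0.69, adjusted p = 0.0158). The latter call was lost without vehicle mouse 2 (0.0534) or TD139 mouse 3 (0.0687), and without TD139 mouse 2 the log2 fold change was −4.03. The light comparison passed without TD139 mouse 1 (0.0348) or TD139 mouse 2 (0.0377). It also passed with library size alone (0.0434), with only the groups compared in the fit (0.0278) and with the length and GC offset (0.03525).

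Ccr1, a receptor of Ccl3 and Ccl6, had 0, 0 and 5 counts in naïve, 3, 9 and 7 in vehicle and 2, 2 and 0 in TD139 mice, and was left out of the edgeR fit for its low counts. Ccl5, a further CC ligand that attracts T cells and monocytes, named after its values were seen, had 0, 3 and 0 counts in naïve, 19, 20 and 31 in vehicle and 16, 0 and 1 in TD139 mice. Its adjusted p was 0.0598 for light, and 0.0109 without TD139 mouse 1. For TD139 against vehicle it was 0.139, and 0.00608 without that mouse.

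Cxcl10 (chr5:92346638-92348889), an interferon-inducible attractant of activated T cells through Cxcr3, had 4, 5 and 3 counts in naïve mice, 18, 5 and 36 counts in vehicle mice, and 1, 0 and 0 counts in TD139 mice. Vehicle mouse 2 lay at the naïve level, so naïve and vehicle mice overlapped. The log2 fold change for light was 2.17 by DESeq2 (adjusted p = 0.137) and 2.14 by edgeR with no filter (0.124), and without vehicle mouse 2 it passed (2.59, adjusted p = 0.0385). TD139 mice were below all others, and vehicle counts per library were 55.6 times theirs, with a counting interval of 9.59 to 2231. Naïve counts were 12.2 times those of TD139 mice, with an interval of 1.80 to 521. However, naïve mice had 4, 4 and 3 counts in flow cell run 1 and 0, 1 and 0 in run 2. The single TD139 count came from run 2, so the difference from naïve mice rests on run 1. The intervals cover counting error only. The edgeR fit left Cxcl10 out for its low counts. Fits that kept it called it lower in TD139 than in vehicle mice, with adjusted p = 0.00119 by DESeq2, 0.00595 by edgeR with no filter, and 0.00583 to 0.0386 by edgeR in the 7 fits with a mouse left out that tested it. Against naïve mice, TD139 mice did not pass by edgeR with no filter (adjusted p = 0.123). Cxcr3 had 0 counts in all mice, and the 6 T-cell markers summed to at most 1.11 CPM in any mouse.

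Cxcl16 is made as a membrane-bound scavenger protein and shed as an attractant for cells with Cxcr6. Cxcl16 (chr11:70453983-70459984) had 608, 482 and 384 counts in naïve mice, 1492, 1245 and 1559 counts in vehicle mice and 1019, 462 and 371 counts in TD139 mice. In CPM, vehicle mice were above all others, TD139 mouse 1 lay between the groups, and the other TD139 mice lay within the naïve range. The means were 18.5 ± 4.65, 49.9 ± 5.15 and 22.8 ± 12.96 CPM. Cxcl16 was 2.69-fold higher in vehicle than in naïve mice (log2 fold change 1.43, SE 0.36, adjusted p = 0.0463), and TD139 mice were 2.19-fold lower than vehicle mice (−1.13, SE 0.35, adjusted p = 0.0386). Both calls were close to the threshold. Each was lost without any 1 of the naïve or vehicle mice or without TD139 mouse 2, and that for TD139 also without TD139 mouse 3. The adjusted p-values were then 0.0522 to 0.144 for light and 0.0512 to 0.136 for TD139. The light call was also lost with flow cell run 2 only, library size alone, no filter or a minimum mean of 10 counts (0.0515 to 0.0728), and the TD139 call with no filter, only the groups compared or the length and GC offset (0.0659 to 0.0718). Exons of Cxcl16 overlap those of Zmynd15 on the opposite strand, and without a stated strand setting for the counting their reads cannot be told apart. Zmynd15 had 93, 104 and 61 counts in naïve, 214, 153 and 239 in vehicle and 173, 52 and 73 in TD139 mice. Cxcr6 had 0 counts in all mice.

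Cxcl12 holds cells with Cxcr4 in place and guides vessels and progenitors. Cxcl12 (chr6:117168535-117181367) had 424, 526 and 276 counts in naïve mice, 439, 382 and 363 counts in vehicle mice and 429, 645 and 546 counts in TD139 mice. Naïve mice, at 10.1 to 19.8 CPM, spanned the vehicle mice. Vehicle and naïve mice differed by less than this spread (log2 fold change −0.16, SE 0.23, adjusted p = 0.680). TD139 mice, at 15.9 to 22.4 CPM, were above vehicle mice, at 12.2 to 15.7 CPM, with a log2 fold change of 0.53 (SE 0.23, adjusted p = 0.0908). This difference passed without TD139 mouse 1 (adjusted p = 0.0475), without naïve mouse 3 (0.0320) and with only vehicle and TD139 mice in the fit (0.0388). After correction by an offset for exon length and GC, the log2 fold change was 0.30 (adjusted p = 0.407). Cxcl12 has 7160 bases of exon, the most of the 10 ligands, and the part of length in this value was not tested otherwise.

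Of the Cxcl12 receptors, Cxcr4 had 23, 61 and 21 counts in naïve mice, 163, 74 and 104 in vehicle mice and 64, 14 and 30 in TD139 mice. Vehicle mice were above all others, and the adjusted p-values were 0.111 for light (log2 fold change 1.59, SE 0.58) and 0.0612 for TD139 (−1.56, SE 0.58). For light, the log2 fold change was 1.22 to 2.27 when a mouse was left out, highest without naïve mouse 2, and none of these fits passed (adjusted p 0.0616 to 0.290). The adjusted p for TD139 was 0.0151 without TD139 mouse 1, where the log2 fold change was −2.26, and 0.0475 without naïve mouse 2. DESeq2 called Cxcr4 in both comparisons (adjusted p = 0.0434 for light and 0.0240 for TD139), and edgeR on flow cell run 2 alone called it for TD139 (0.0484). The scavenging receptor Ackr3, counted under the older symbol Cxcr7, stood at 3.96 ± 0.192, 4.19 ± 1.87 and 3.98 ± 0.603 CPM in naïve, vehicle and TD139 mice.

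Per exon length, Cx3cl1 was the most abundant of the 10 ligands in every group. Cx3cl1 (chr8:94772009-94782427) had 3496, 3445 and 3300 counts in naïve mice, 4174, 4009 and 4307 counts in vehicle mice and 3651, 3751 and 3654 counts in TD139 mice. In CPM, vehicle mice at 142 to 149 were above naïve mice at 121 to 134, and TD139 mice at 131 to 144 overlapped both. Neither difference passed (log2 fold change 0.18, SE 0.08, adjusted p = 0.183 for light, and −0.09, SE 0.08, adjusted p = 0.427 for TD139).

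Its receptor moved more. Cx3cr1, a marker of microglia, had 88, 83 and 58 counts in naïve mice, 342, 311 and 387 counts in vehicle mice and 211, 82 and 50 counts in TD139 mice. It rose 4.19-fold after light (log2 fold change 2.07, SE 0.44, adjusted p = 0.0268) and was 2.86-fold lower under TD139 (−1.52, SE 0.43, adjusted p = 0.0234). Of 8 receptors tested by edgeR, it alone passed with all mice and both runs in either comparison, beside 7.80% and 33.4% of all tested genes. DESeq2 also called Cxcr4 in both. Without TD139 mouse 1, the TD139 log2 fold change of Cx3cr1 was −2.32 (edgeR adjusted p = 0.000383), and −1.18 at the other end of the range over left-out mice. The light call was lost without any naïve mouse or without vehicle mouse 1 or 3 (adjusted p 0.0702 to 0.0934), and the TD139 call without vehicle mouse 3 or TD139 mouse 2 or 3 (0.0630 to 0.09995). Exons of Cx3cr1 overlap Gm33858 on the opposite strand.

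**Figure D3:**
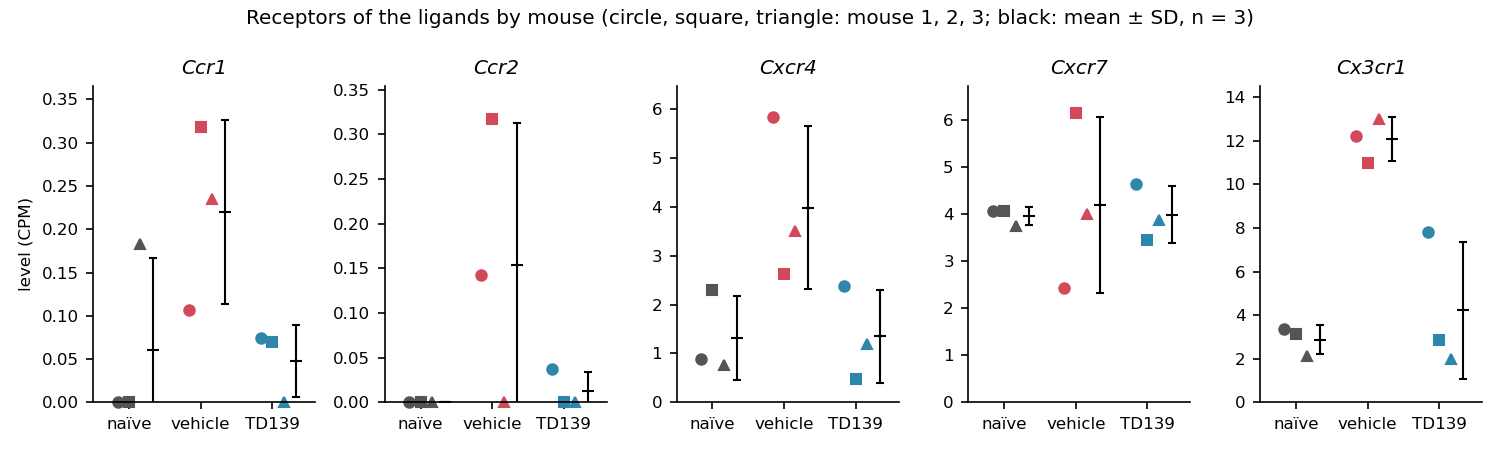
Level in CPM of 5 receptors that bind the ligands in the 9 mice, with linear axes from 0, symbols for the mouse number and black bars for the mean ± SD of 3 mice, cut at 0. Cx3cr1 lies at 12.1 ± 1.02 CPM in vehicle mice and at or under 7.82 CPM elsewhere, and Cxcr7 is the older symbol of Ackr3.

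Among the other ligands of the family, Cxcl14 stood above Cx3cl1 per exon length, at 50.1, 60.8 and 46.8 RPKM in naïve, vehicle and TD139 mice. Of 30 such ligands, 10 had 0 counts in all mice and 8 had enough counts to be tested. None passed for light by edgeR, beside 7.80% of all tested genes, and 2 had an unadjusted p under 0.05. DESeq2 called 2 of 20 for light (Ccl5 and Ccl12), beside 12.5% of all genes. For TD139 against vehicle, edgeR called 1 of the 8, beside 33.4% of all tested genes. This was Cxcl14, a ligand found in many epithelia and neurons. It had 91.5 ± 16.3, 111 ± 11.4 and 85.5 ± 5.41 CPM in naïve, vehicle and TD139 mice, with a log2 fold change of −0.38 (SE 0.13, adjusted p = 0.0442). This call was lost without naïve mouse 2, any vehicle mouse, TD139 mouse 2 or TD139 mouse 3 (adjusted p 0.0525 to 0.159). It was also lost with no filter (0.0512), with a replicate block (0.0522) and with flow cell run 2 only (0.0519). With the length and GC offset the direction turned, to a log2 fold change of 0.093 (adjusted p = 0.540). DESeq2 called 3 of 20 for TD139 against vehicle (Ccl7, Ccl12 and Cxcl14), beside 30.5% of all genes. With no filter, edgeR called 5 of 20 (Ccl7, Ccl8, Ccl12, Cxcl2 and Pf4), beside 25.1% of all genes. Nothing is read from these numbers. Ccl25 and Ccl9, next by mean CPM, had group means of 4.21 to 5.51 and 2.13 to 2.82 CPM. Of the 24 receptors, 7 had 0 counts in all mice. Darc (Ackr1), a receptor that binds chemokines without signalling, had the highest mean CPM, with 115, 119 and 108 RPKM in naïve, vehicle and TD139 mice, but its exons overlap those of Cadm3 on the same strand, which had 8136 to 11174 counts per mouse, so its counts are uncertain.

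Markers of microglia and macrophages moved with the ligands that rose after light. All 8 were detected in every mouse and summed to 43.5 to 51.7 CPM in naïve and 140 to 219 CPM in vehicle mice. In TD139 mice 1 to 3, they summed to 91.6, 43.0 and 36.0 CPM. Of the 8, 6 rose after light and 7 fell under TD139. Of all 15196 tested genes, 746 rose and 439 fell after light, and 2617 rose and 2455 fell under TD139. Endothelial markers summed to 165 to 247 CPM in naïve and 317 to 462 CPM in vehicle mice, and to 448, 217 and 215 CPM in the TD139 mice. Of these 5, 0 were called for light and 1 fell under TD139. The 5 Müller glia markers summed to 3201 to 3941, 3936 to 4460 and 3779 to 4244 CPM in naïve, vehicle and TD139 mice, with 2 of them higher after light and 0 called for TD139. Of the 6 rod markers, 4 fell after light and 3 rose under TD139. The 5 markers of the retinal pigment epithelium, the layer next to the retina, summed to 75.7 to 159 CPM in naïve, 119 to 262 CPM in vehicle and 84.2 to 117 CPM in TD139 mice. Of the 4 that could be tested, 0 were called for light and 1 fell under TD139. Nothing is read from a single call, here or in the endothelium. The part of these cell types in the ligand levels was not tested.

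TD139 mouse 1 had the highest sum of microglia and of endothelial markers in its group. It also had the highest level of the TD139 mice for Ccl3, Ccl4, Cxcl1, Cxcl5, Cxcl10 and Cxcl16, 6 of the 10 ligands, beside 40.1% of the tested genes. Some of these stood at or near the floor, with 1 count of Cxcl10 and 3 of Ccl4, so nothing is read from this number. Without it, 9 ligands could be tested and 8 were called for TD139 against vehicle, beside 38.4% of all tested genes. Of these, Ccl2, Ccl3, Ccl6, Cxcl1, Cxcl5, Cxcl10 and Cxcl16 fell and Cxcl12 rose, leaving Cx3cl1. Without vehicle mouse 3 the number called was 3 of 8, beside 16.4% of all tested genes, and without TD139 mouse 3 it was 2 of 9, beside 12.4%. For light, it was 6 of 9 without TD139 mouse 1, beside 12.8% of all tested genes. It was 0 of 9 without naïve mouse 2 and 1 of 8 without vehicle mouse 3, beside 0.00647% and 0.547%. Without naïve mouse 1, naïve mouse 3 or vehicle mouse 1 it was 2, beside 0.591%, 1.41% and 1.62%. The share of all genes called thus changed with the same mice.

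**Figure D4:**
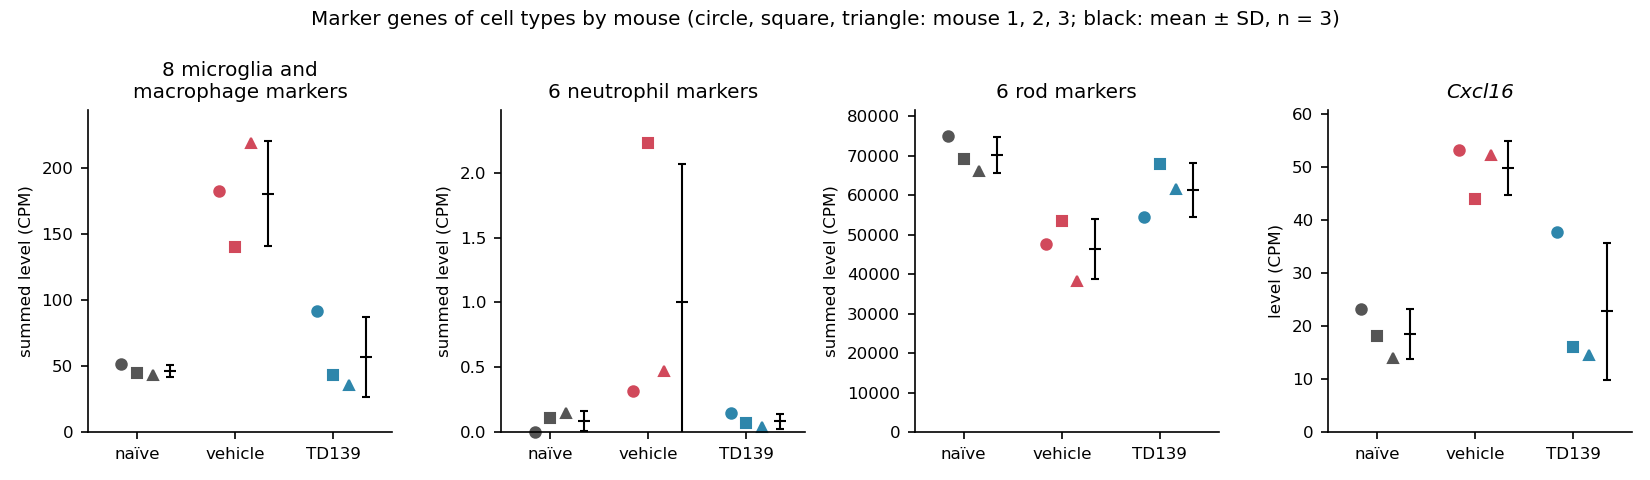
Summed level in CPM of marker genes of microglia and macrophages, neutrophils and rods, beside the level of Cxcl16, in the 9 mice, with linear axes from 0 and black bars for the mean ± SD of 3 mice, cut at 0. TD139 mouse 1 (circle) is the highest of its group for the microglia markers at 91.6 CPM and for Cxcl16 at 37.8 CPM, and the lowest for rod markers at 54570 CPM.

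The genes most like each tested ligand over the 9 mice were sought by Pearson's r of log2 CPM among 13090 genes averaging 50 counts or more per mouse. These values describe the same 9 mice in 3 groups, so a shared group difference alone gives a high r. Closest to Ccl2 were Tmem119 (r = 0.97) and Anxa3 (0.97), and to Ccl3 were Lyz2 (0.99) and Smo (0.99). Closest to Cxcl5 were Spp1 (0.997) and Trem2 (0.99), and to Cxcl16 were Apoc1 (0.99) and Cx3cr1 (0.99). Among these, Tmem119, Lyz2, Spp1, Trem2 and Cx3cr1 are known from microglia or macrophages. Cxcl1 was nearest to Gyg (0.99) and Erbb2 (0.98), and Ccl6 to Rhoa (0.94) and Pdia3 (0.91). Cxcl12 was nearest to Hnrnpa1 (0.97) and Lipg (0.94), and Cx3cl1 to Grm2 (0.94), a glutamate receptor of neurons, and Pisd-ps3 (0.93).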

How the data were processed

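Single reads of poly(A) RNA from whole retina were collected in 2 flow cell runs per mouse. For each run of the 9 mice, the authors deposited whole-number counts of reads per gene symbol, made with BaseSpace RNA Express and not normalized. The submitters' processing notes name the build mm10. The strand setting and annotation of the counting are not given in the sources used here. Counts of both runs were summed, so that 1 mouse is 1 replicate. No-feature reads (19.1 to 19.9% in naïve, 16.5 to 19.4% in vehicle and 21.3 to 22.8% in TD139 mice) and ambiguous reads (0.303 to 0.471%) were left out. Positions and exon lengths are those of GENCODE on GRCm38, joined by symbol.

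Counts were tested with edgeR 4.0.16 in R 4.3.3 (filterByExpr, TMM, robust quasi-likelihood F test) with all 3 groups in 1 fit and Benjamini-Hochberg adjustment over 15196 genes. The SE is the log2 fold change divided by the square root of F. CPM uses TMM-scaled libraries, and RPKM divides it by exon length. Where a group had at most 3 counts in each mouse, the fold is a bound at 3 counts per mouse if all were 0, and otherwise a ratio of summed counts with an exact 95% interval. Steps were tested on simulated data. Alternatives were DESeq2 1.42.0, RLE or library size alone, other filters, only the groups compared, the replicate number, single runs, a length and GC offset, and each mouse left out.

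The ligands, gene lists and tests were chosen with earlier results of these data known. Named are the 10 ligands, their receptors (1 of which is not reported here), the called and the 3 most abundant genes of the other lists, and for each tested ligand its 2 nearest genes. Other ligands named (Ccl5, Ccl7, Ccl8, Ccl11, Ccl12, Ccl17, Cxcl2, Cxcl9 and Pf4) were chosen after their values or their calls in alternative fits were seen. The paper's imaging and quantitative PCR were not analysed here.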

Additional observations from a re-analysis of the deposited data

How the results depend on the processing

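The labels do not say that equal replicate numbers mark paired mice, and deviations of equally numbered mice correlated at −0.26 to 0.28. With a replicate block, the ligand counts were 4 for light and 5 for TD139 against vehicle, as without it, beside 5.92% and 31.4% of all tested genes (7.80% and 33.4% without it), and the other ligands called for TD139 dropped from 1 to 0. When 1 mouse was left out, the ligands called ranged from 0 to 6 for light and from 2 to 8 for TD139 against vehicle, the other ligands from 0 to 2 and from 0 to 3, and the receptors from 0 to 1 and from 0 to 2. Over the same fits, the share of all tested genes called ranged from 0.00647% to 12.8% for light and from 10.5% to 38.4% for TD139 against vehicle. With flow cell run 2 only, the ligands called were 2 for light and 3 for TD139 of only 5 tested, beside 7.11% and 32.4% of all tested genes, the other ligands for TD139 0 and the receptors for TD139 2. With run 1 only, 1 other ligand was called for light, beside 6.79% of all tested genes. DESeq2 called 2 other ligands for light and 3 for TD139, and 2 receptors in each, beside 12.5% and 30.5% of all genes. With only the groups compared, 1 other ligand and 2 receptors were called for light, beside 9.99% of all tested genes. With the length and GC offset these were 1 and 2, beside 18.9%, with 0 other ligands for TD139, beside 22.2%. With no filter on low counts, 5 other ligands were called for TD139, beside 25.1% of all genes. TD139 against naïve gave 0 calls in all 3 lists under each alternative, but DESeq2 gave an adjusted p for only 3 of the 10 ligands there. In that comparison, 0 of all tested genes were called with the replicate block, with the length and GC offset and in 5 of the fits with a mouse left out, and 1 of 14787 with only the groups compared, so these 0 calls say nothing about stability. Directions reversed in the following values, and the cause was not tested. For TD139 against naïve, with 1 mouse left out, the log2 fold change of Ccl3 ranged from −1.90 to 5.57 and that of Cxcl16 from −0.26 to 0.55, both lowest without TD139 mouse 1. That of Ccl6 ranged from −1.59 to 0.22, and was above 0 without TD139 mouse 1 or TD139 mouse 3 (0.19). Cxcl12 for light ranged from −0.38 to 0.074, the latter without naïve mouse 2. With the length and GC offset, TD139 against vehicle gave 0.10 for Cx3cl1 and 0.093 for Cxcl14, which was called in the opposite direction without it. Scaling by library size alone shifted the median gene by 0.094 for light and −0.102 for TD139 against vehicle. Depth limits Ccl4, Cxcl10 and most receptors, where few counts carry the values.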

Other observations

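Some scarce ligands of the family had their highest counts in vehicle mice, and these were picked after their values were seen. Ccl11, an eosinophil attractant, had 10 counts in vehicle mouse 2, 1 in vehicle mouse 1 and 0 in all other mice. Ccl17, which attracts cells with Ccr4, had 117 counts in vehicle mouse 3 and 14 to 33 counts in the other 8 mice. Cxcl9, an interferon-inducible neighbour of Cxcl10, had 3 counts in vehicle mouse 3, the mouse with the most Cxcl10, and 0 elsewhere. Pf4, carried by platelets and some macrophages, had 0, 0 and 1 counts in naïve, 5, 9 and 8 in vehicle and 0, 1 and 0 in TD139 mice.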
